A study of Mus musculus with 10 samples.

Results

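The genes described here are 45 genes of protein folding and quality control in the endoplasmic reticulum (ER), of 24062 genes listed in the pancreas count files. They were chosen by name: ER chaperones, disulfide and prolyl isomerases, sensors and transcription factors of the unfolded protein response, and genes of ER-associated degradation. All 45 symbols were found, and all 45 passed the count filter used for testing. RNA was sequenced from the pancreas of C57BL/6 mice at postnatal day 5 (P5), from 5 WT mice and 5 KSR23 mice with 1 library per mouse. KSR23 mice carry the R23 allele, an IL-23 cassette (p19 and p40) kept silent in the ROSA26 locus by a floxed STOP signal, together with Cre recombinase from the K14 promoter, which is active in keratinocytes. WT mice were labelled as wild type, and the study describes them as littermates of the KSR23 mice. The cassette is directed to keratinocytes and not to a cell type of the pancreas, and the question of the comparison was how the newborn pancreas differed between these mice.

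The acinar cell of the pancreas makes more secreted protein than almost any other cell, and every digestive enzyme passes through its ER. There the HSP70 chaperone BiP (Hspa5) and its partners hold unfolded chains, protein disulfide isomerases form and rearrange disulfide bonds, and chains that fail to fold are sent to the cytosol for degradation. When unfolded chains accumulate, the sensors IRE1 (Ern1), PERK (Eif2ak3) and ATF6 act through XBP1, ATF4 and cleaved ATF6 to raise chaperone and degradation genes, a program called the unfolded protein response. XBP1 is also needed for acinar cells to build their secretory apparatus, with or without stress.

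The WT libraries held 26830235 to 33189132 gene counts and the KSR23 libraries 16715976 to 57784136. Alignments that were not unique, which were counted on no gene, numbered 1.07 to 1.26 per gene count in WT libraries and 0.667 to 0.787 in KSR23 libraries. The tissue label was borne out by its markers: the 19 acinar genes for secreted proteins summed to between 443200 and 490000 CPM (counts scaled to a common library total) in WT mice and between 296600 and 370700 CPM in KSR23 mice, with 14 of them lower and 3 higher in KSR23 mice. Duct markers were higher in 6 of 7 genes, with summed CPM of 1146 to 1253 in WT and 1862 to 2023 in KSR23 mice. The duct gene that was not called was Krt19 (log2 FC -0.05). Myeloid markers were higher in 6 of 7 genes, with sums of 92.6 to 118 and 136 to 338 CPM. Islet markers were lower in 6 of 7 genes and higher in 1 (8113 to 11370 against 4995 to 6296 CPM). Stromal sums (8188 to 10280 and 7432 to 9679 CPM) and endothelial sums (160 to 179 and 160 to 181 CPM) overlapped between the groups, with 1 of 7 stromal genes higher and 1 lower and 2 of 5 endothelial genes higher and 2 lower. Lymphoid markers went in no shared direction: Cd3e was lower (3.06 to 4.81 CPM in WT and 0.831 to 2.01 CPM in KSR23 mice) and Cd79a was not called. The T cell markers Cd3d and Cd8a, too low to be tested, stood at 0.0687 to 0.176 and at 0 CPM in WT mice and at 0.324 to 0.615 and 0.0252 to 0.224 CPM in KSR23 mice. Plasma cells are rich in many of the ER genes described here. Of 7 listed markers of theirs, 4 were in the files (Igj, Mzb1, Tnfrsf17 and Irf4) and summed to at most 0.904 CPM in WT and 1.36 CPM in KSR23 mice, while the immunoglobulin genes Ighm, Igha and Igkc were not analysed here. In bulk RNA, fewer cells of a type and less RNA per cell cannot be told apart, and the part these shifts played in the ER genes was not tested.

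In KSR23 mice the ER genes did not move as a block. The groups were compared with the quasi-likelihood F test of edgeR, and the p adjusted by Benjamini-Hochberg over all 13882 tested genes is called the edgeR adjusted p from here on, with SE for the standard error of a log2 FC. In this test 17 of the 45 genes (37.8%) were higher in KSR23 mice at an adjusted p below 0.05, 6 (13.3%) were lower and 22 were not called. Over all tested genes the same rule called 31.0% in either direction, 16.2% higher and 14.8% lower. The share of ER genes called higher was thus above the background, and the share called lower was close to it. The list was drawn up with earlier results of these data known, so these shares are a description and their difference was not tested. Of 57 other tested genes of the same pathways, 17.5% were higher and 14.0% lower. In log2 CPM the 5 WT and 5 KSR23 mice did not overlap for 19 of the 45 genes, against 19.4% of all tested genes. The median log2 fold change (log2 FC, KSR23 over WT) was 0.16 for the 45 genes and -0.01 for all tested genes. With libraries scaled by their totals alone, in place of the TMM scaling used throughout, 23 ER genes were higher and 6 lower, while the split over all genes went from 2250 higher and 2049 lower to 3075 higher and 1161 lower and the median of all genes rose to 0.09.

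Counts by role stand beside 16.2% higher and 14.8% lower over all tested genes. The roles hold few genes each, and differences between them were not tested. Of the 11 chaperones and co-chaperones, 8 were higher and 3 were not called, with a median log2 FC of 0.40. Of the 11 genes of ER-associated degradation, 4 were higher, 3 were lower and 4 were not called, with a median of 0.05, and the 10 disulfide enzymes held 2 higher, 2 lower and 6 uncalled genes, with a median of 0.0038. Among the 8 sensors and transcription factors, 2 were higher and 6 were not called. Of the pair of lectin chaperones 1 was higher, and of the 3 prolyl isomerases 1 was lower.

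**Figure D1:**
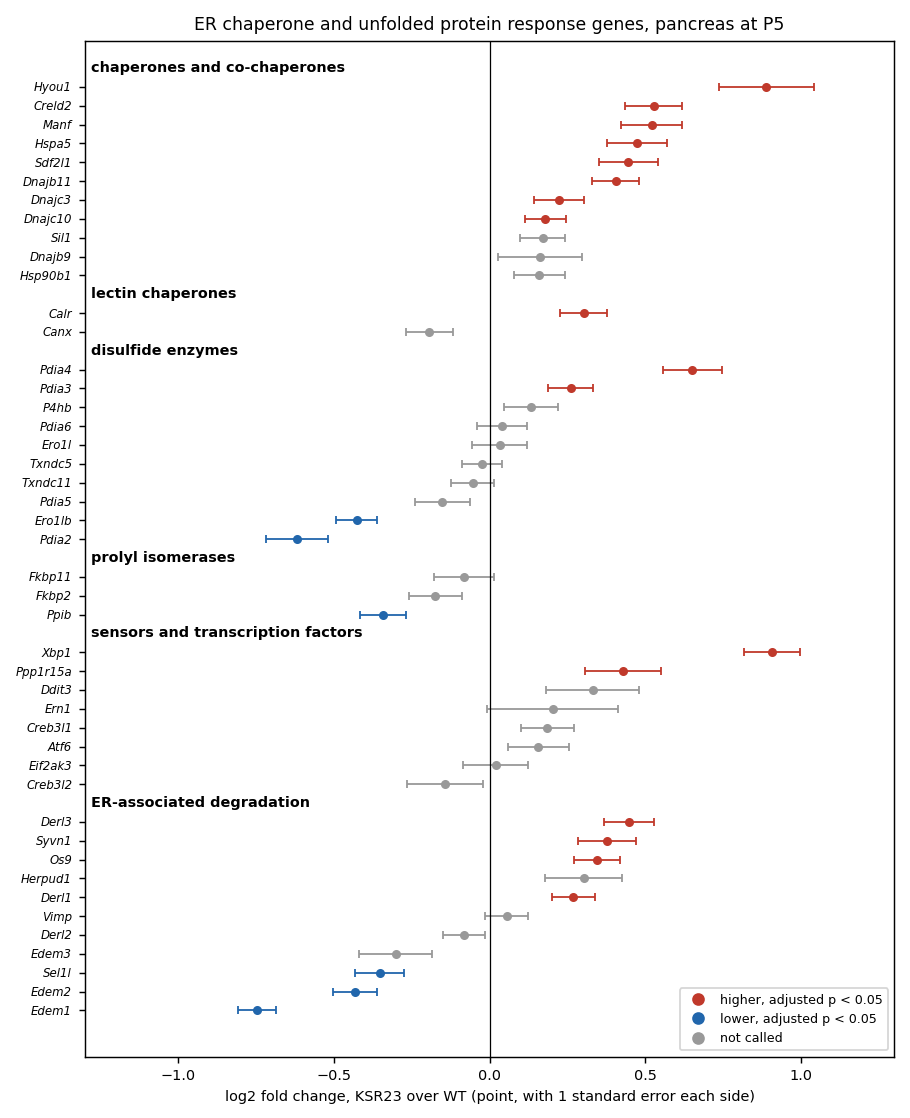
Log2 FC of each of the 45 genes, KSR23 over WT, grouped by role, with a bar of 1 standard error on each side; red points were called higher, blue points lower and grey points were not called (edgeR adjusted p below 0.05). The 11 chaperones and co-chaperones all lie to the right of 0, between 0.16 and 0.89, whereas the degradation genes spread from -0.75 to 0.45.

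Much of what is known of this program rests on short promoter sequences, the best known being the ER stress response element (ERSE). It is shown first for the 6 ER genes with the highest CPM in WT mice among those that hold it. The ERSE is CCAAT, then 9 bases of any kind, then CCACG, where CCAAT is bound by NF-Y and CCACG by ATF6. In RefSeq promoters (GRCm38.p6), the 250 bases before the annotated start were searched on both strands. An ERSE was present in 37 of 32851 promoters (0.113%), which belong to 35 genes. Of those genes, 10 are among the 39 ER genes with a promoter entry (25.6%). No entry was present for Hyou1, Sil1, Manf, Atf6, Creb3l1 and Derl1. In the stretches below the capitals mark the fixed letters of the ERSE; on the strand opposite to the gene the element reads CGTGG, 9 bases, ATTGG. Every stretch is written 5′ to 3′ on the strand of its gene. The stretch of Hspa5 lies before the RefSeq start but inside the gene as GENCODE places it, since the GENCODE start is farther upstream.
Hspa5 (chr2:34772020-34772048, + strand): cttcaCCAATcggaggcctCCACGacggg
Pdia6 (chr12:17266466-17266534, + strand): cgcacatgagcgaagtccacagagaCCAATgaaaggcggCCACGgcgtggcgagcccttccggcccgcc
Hsp90b1, first site (chr10:86705613-86705681, - strand): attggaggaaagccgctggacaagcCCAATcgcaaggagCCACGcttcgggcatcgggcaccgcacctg
Hsp90b1, next site (chr10:86705528-86705556, - strand): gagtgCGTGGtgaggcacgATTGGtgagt
Calr (chr8:84847050-84847118, - strand): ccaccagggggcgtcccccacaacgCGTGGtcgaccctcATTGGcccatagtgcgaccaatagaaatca
Dnajc3 (chr14:118937802-118937870, + strand): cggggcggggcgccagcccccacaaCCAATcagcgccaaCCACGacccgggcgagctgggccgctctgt
Canx (chr11:50325775-50325843, - strand): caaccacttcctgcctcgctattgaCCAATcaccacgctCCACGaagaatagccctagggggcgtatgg

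Of these 6 genes, Hspa5, Calr and Dnajc3 were higher in KSR23 mice, the last with a call that was lost in 12 of 19 alternative settings. Pdia6, Canx and Hsp90b1, which holds 2 copies, were not called, and differences between the genes were not tested. The other 4 genes with an ERSE were Creld2, Derl3 and Syvn1, which were higher, and Ero1lb, which was lower. The 10 genes with an ERSE had a median log2 FC of 0.26, with 6 higher, 1 lower and 3 not called. The 29 with a promoter entry and no exact match to the ERSE had a median of 0.03, with 8 higher, 5 lower and 16 not called. Over all tested genes 16.2% were higher and 14.8% lower, and the difference between these sets was not tested. Of 8 other tested genes with an ERSE, outside the ER list, 0 were higher and 2 lower. Xbp1, the gene with the largest log2 FC of all 45, was among those without an ERSE in this window. The second form of the element (ERSE-II: ATTGG, 1 base, CCACG) was found in 10 promoters (0.0304%), of which 1 belongs to an ER gene here, Herpud1. The letters TGACGTGG (the UPR element) were in 185 promoters (0.563%), among them those of Txndc5 and Txndc11. None of these 3 genes was called. A match is a description of the letters, and the binding of a factor was not measured.

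**Figure D2:**
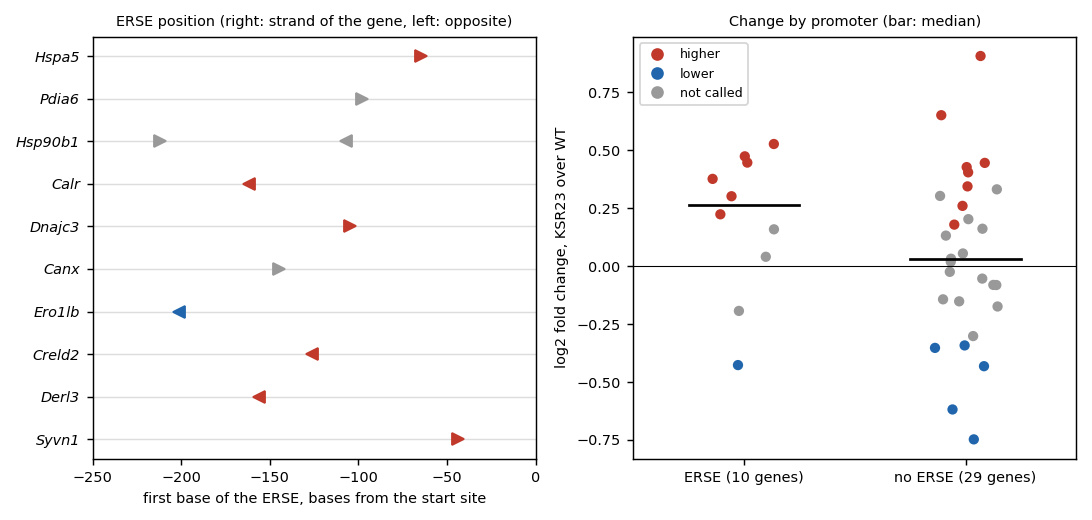
Left, position of each ERSE in the 10 ER genes that hold one, in bases from the annotated start site; a triangle points right where the element is on the strand of the gene and left where it is on the opposite strand. Right, log2 FC (KSR23 over WT) of the 10 genes with an ERSE and the 29 without, with the median as a bar. Both sets hold genes called higher (red), lower (blue) and not called (grey). The medians were 0.26 and 0.03, and the difference between the sets was not tested.

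The central chaperone Hspa5 (chromosome 2, 34771970 to 34777547, GRCm38), encoding BiP, was the most abundant chaperone gene. The 5 WT mice, in the order of replicates 1 to 5, had 1505, 1478, 1429, 1452 and 1271 CPM, and the 5 KSR23 mice had 1982, 1999, 1666, 1859 and 2403 CPM. Every KSR23 mouse was above every WT mouse. Hspa5 had log2 FC 0.47 ± 0.0969 (SE, edgeR adjusted p = 0.00120), or 1.39-fold. Hyou1 (chromosome 9, 44379490 to 44392369) encodes GRP170, a large HSP70 relative that exchanges nucleotide on BiP. It had 18.5, 17.3, 20.0, 15.8 and 15.4 CPM in WT mice and 37.1, 24.95, 21.9, 30.3 and 45.6 CPM in KSR23 mice. The groups did not overlap, and KSR23 replicates 1 and 5 stood well above the other 3. Its log2 FC of 0.89 (SE 0.153, edgeR adjusted p = 0.000245) was the largest of the chaperones, at one of the lowest levels: per kilobase of exon, Hyou1 had 2.41 CPM in WT mice and Hspa5 had 337 CPM.

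Creld2 (chromosome 15, 88819646 to 88826683) and Manf (chromosome 9, 106838312 to 106891979) encode soluble ER proteins known as targets of the unfolded protein response. Creld2 had 108, 112, 102, 101 and 83.3 CPM in WT mice and 150, 148, 124, 133 and 174 CPM in KSR23 mice, which gave log2 FC 0.53 ± 0.0917 (SE) and an edgeR adjusted p of 0.000281. Manf had 189, 155, 157, 180 and 145 CPM in WT mice and 248, 235, 197, 211 and 293 CPM in KSR23 mice, for log2 FC 0.52 ± 0.0974 (SE) at an edgeR adjusted p of 0.000553. Neither gene overlapped between the groups. The annotation of Manf shares 326 bp of exon with neighbouring genes. Sdf2l1 and Dnajb11, which encode a stress-inducible partner of the ER J-domain proteins and ERdj3, were also higher without overlap, with log2 FC of 0.45 and 0.40 and edgeR adjusted p of 0.00170 and 0.000564.

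Dnajc3 and Dnajc10, encoding the J-domain co-chaperones p58IPK and ERdj5, were called by a small margin. Their log2 FC were 0.22 and 0.18 with edgeR adjusted p of 0.0412 and 0.0440, the groups overlapped, and each lost its call in 12 of 19 alternative settings, with adjusted p up to 0.134 and 0.176. These settings included leaving out any 1 of the 5 WT mice. The 3 chaperone genes that were not called were Hsp90b1, Dnajb9 and Sil1. Dnajb9, encoding ERdj4, and Sil1, a nucleotide exchange factor of BiP, had log2 FC of 0.16 and 0.17. Hsp90b1 encodes GRP94, the HSP90 of the ER, and is often raised together with BiP. Its WT mice had 511 to 592 CPM and its KSR23 mice 529 to 690 CPM, with a log2 FC of 0.16 and a 95% interval of -0.01 to 0.33.

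The lectin chaperones calreticulin (Calr) and calnexin (Canx), which hold newly made glycoproteins through their sugar chains, had log2 FC of opposite sign. Calr (chromosome 8, 84841850 to 84846934) had 353, 360, 325, 378 and 316 CPM in WT mice and 447, 408, 379, 408 and 491 CPM in KSR23 mice. The lowest KSR23 mouse was just above the highest WT mouse, and the log2 FC came to 0.30 (SE 0.0763, edgeR adjusted p = 0.00604). Canx ranged from 246 to 304 CPM in WT and from 212 to 262 CPM in KSR23 mice (log2 FC -0.19, edgeR adjusted p = 0.0618), and was not called.

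The disulfide enzymes held 2 isomerase genes that were higher, and an isomerase and an oxidase gene that were lower. Pdia4 (chromosome 6, 47796141 to 47813430), encoding the isomerase ERp72, had 135, 136, 132, 134 and 113 CPM in WT mice and 203, 186, 165, 211 and 256 CPM in KSR23 mice. This was log2 FC 0.65 ± 0.0945 (SE, edgeR adjusted p = 4.18e-05) with no overlap. Pdia3 (chromosome 2, 121413775 to 121438687), encoding ERp57, the isomerase that works with calreticulin and calnexin, had 504, 518, 505, 511 and 450 CPM in WT mice and 616, 609, 548, 552 and 655 CPM in KSR23 mice. The groups did not overlap, and its log2 FC of 0.26 (SE 0.0711, edgeR adjusted p = 0.00989) was smaller than that of Pdia4.

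Pdia2 (chromosome 17, 26195999 to 26199087) encodes the isomerase characteristic of the pancreas and was the most abundant of the 45 genes, with 2326 CPM per kilobase of exon in WT mice. P4hb, encoding the founding isomerase PDI, came next with 562 CPM per kilobase. Pdia2 had 4017, 3951, 4138, 4029 and 3879 CPM in WT mice and 2202, 2849, 2535, 2368 and 3083 CPM in KSR23 mice. The WT mice lay within a narrow range and all 5 KSR23 mice lay below it, with log2 FC -0.62 ± 0.0996 (SE, edgeR adjusted p = 0.000126). Ero1lb (chromosome 13, 12565874 to 12611396) encodes the pancreas-enriched oxidase that recharges isomerases. It had 130, 147, 147, 145 and 133 CPM in WT mice and 104, 101, 98.1, 101 and 117 CPM in KSR23 mice, which gave log2 FC -0.43 ± 0.0666 (SE) and an edgeR adjusted p of 9.19e-05. It was lower without overlap and is the ERSE gene that was lower. Of its sequence, 87.8% of 75-base windows were unique to it among annotated transcripts. Its widely expressed relative Ero1l was not called (log2 FC 0.03), nor were Pdia5, Pdia6, P4hb, Txndc5 and Txndc11, whose log2 FC lay between -0.15 and 0.13.

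Ppib (chromosome 9, 66060222 to 66066623), encoding cyclophilin B, was the prolyl isomerase gene that was lower. It had 298, 251, 278, 274 and 252 CPM in WT mice and 197, 239, 197, 199 and 235 CPM in KSR23 mice, for log2 FC -0.34 ± 0.0752 (SE) at an edgeR adjusted p of 0.00218. All 5 KSR23 mice were below the WT mice. Its exons share 825 bp with Snx22 on the opposite strand, and the strand setting of the counting is not stated, so reads of the overlap cannot be assigned to either gene with certainty. Fkbp2 and Fkbp11 had log2 FC of -0.17 and -0.08 and were not called.

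**Figure D3:**
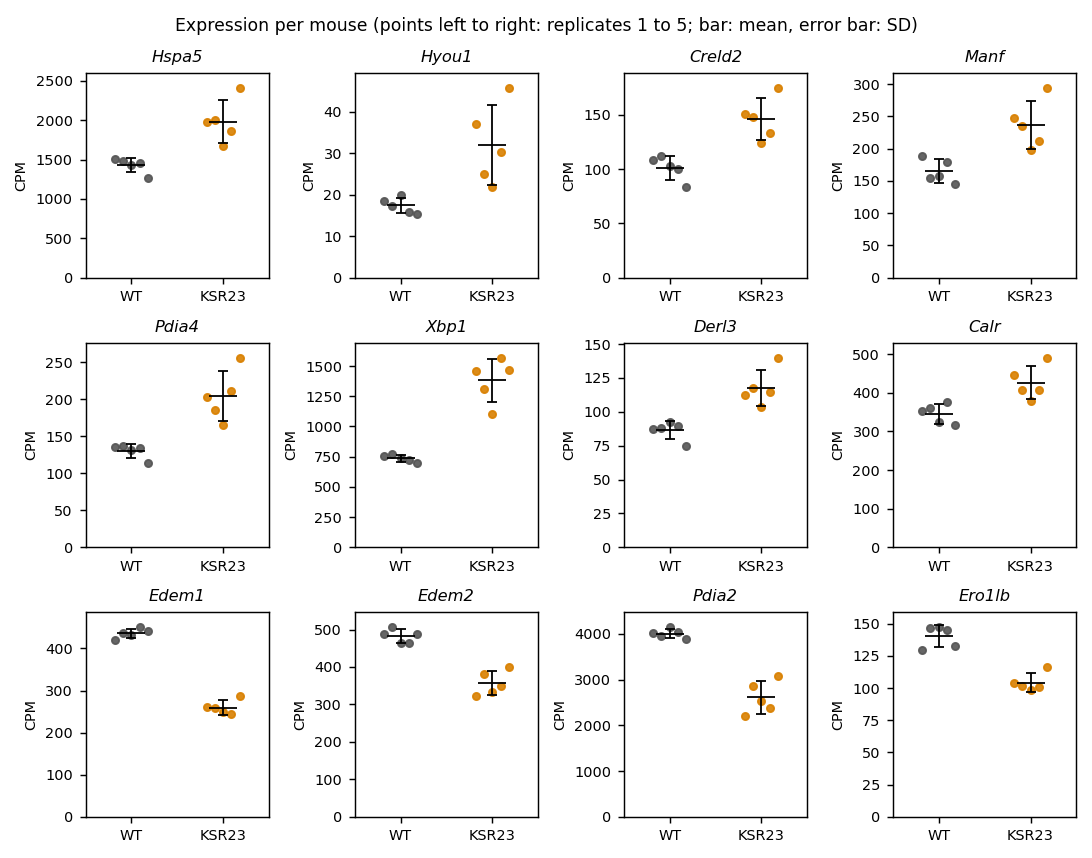
CPM of 12 named ER genes in each mouse, on axes that start at 0; points are replicates 1 to 5 from left to right, the long bar is the mean and the error bar the SD of 5 mice. Hspa5, Hyou1, Creld2, Manf, Pdia4, Xbp1, Derl3 and Calr had every KSR23 value above the WT range, and Edem1, Edem2, Pdia2 and Ero1lb had every KSR23 value below it.

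Of the sensors and factors, Xbp1 (chromosome 11, 5520659 to 5525893) stood apart. It had 758, 770, 739, 720 and 699 CPM in WT mice and 1457, 1313, 1106, 1567 and 1468 CPM in KSR23 mice. The WT mice were within a narrow range, and even the lowest KSR23 mouse, replicate 3, was well above it. The log2 FC came to 0.91 (SE 0.0902, edgeR adjusted p = 4.70e-07), or 1.88-fold. Counts per gene do not separate the spliced, active form of Xbp1 from the unspliced form, so IRE1 activity was not measured.

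The 3 sensors that sit in the ER membrane were not called. Ern1, encoding IRE1, had 3.37, 6.39, 3.09, 2.97 and 4.55 CPM in WT mice and 5.01, 5.22, 3.02, 4.33 and 5.57 CPM in KSR23 mice (log2 FC 0.20, 95% interval -0.24 to 0.64). It was the least abundant of the 45 genes, at 0.498 CPM per kilobase in WT mice, and its wide interval includes changes of the size seen in Hspa5. Eif2ak3, encoding PERK, had 40.5, 35.4, 48.3, 45.6 and 48.9 CPM in WT and 53.7, 36.0, 42.1, 45.7 and 43.9 CPM in KSR23 mice (log2 FC 0.02, interval -0.20 to 0.24). Atf6 had 29.0, 27.3, 28.5, 31.6 and 37.2 CPM in WT and 40.7, 35.7, 29.4, 33.6 and 31.6 CPM in KSR23 mice (log2 FC 0.16, interval -0.05 to 0.36). The groups overlapped in all 3 genes. These values are RNA levels, while the sensors themselves are switched on as proteins.

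Downstream of PERK, Ddit3 encodes CHOP, a factor linked to cell death under lasting ER stress, and Ppp1r15a encodes GADD34, which reverses the block in translation. Ddit3 had 4.24, 4.29, 4.43, 4.68 and 3.95 CPM in WT and 3.98, 4.89, 5.65, 6.85 and 5.82 CPM in KSR23 mice. The KSR23 mice other than replicate 1 lay above the whole WT range, with a log2 FC of 0.33, a 95% interval of 0.02 to 0.65, which is not adjusted for the number of genes tested, and an edgeR adjusted p of 0.101. Ppp1r15a was higher with overlap, at 21.1 to 33.0 CPM in WT and 30.4 to 47.0 CPM in KSR23 mice (log2 FC 0.43, SE 0.122, edgeR adjusted p = 0.0128). The ER-tethered factors Creb3l1 and Creb3l2 had log2 FC of 0.19 and -0.14 and were not called.

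Genes of ER-associated degradation went in both directions. The EDEM proteins trim mannose from misfolded glycoproteins and so mark them for disposal. Edem1 (chromosome 6, 108828641 to 108859356) had 421, 436, 432, 450 and 440 CPM in WT mice and 260, 258, 249, 243 and 287 CPM in KSR23 mice, which gave log2 FC -0.75 ± 0.0613 (SE) and an edgeR adjusted p of 3.80e-08. This was the lowest adjusted p of the 45 genes. Edem2 (chromosome 2, 155701677 to 155729475) had 489, 506, 463, 463 and 489 CPM in WT mice and 323, 381, 332, 349 and 401 CPM in KSR23 mice, for log2 FC -0.43 ± 0.0701 (SE) at an edgeR adjusted p of 0.000136. The groups were apart in both genes. Edem3 ranged from 30.5 to 40.3 CPM in WT and from 22.9 to 36.6 CPM in KSR23 mice, with a log2 FC of -0.30, and was not called (edgeR adjusted p = 0.0594).

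The membrane complex that ubiquitinates these substrates is built from the ligase HRD1 (Syvn1), its adaptor SEL1L, the lectin OS9 and the derlins. Sel1l (chromosome 12, 91806043 to 91849157) was lower, with 851, 930, 965, 986 and 910 CPM in WT mice and 790, 705, 634, 707 and 798 CPM in KSR23 mice (log2 FC -0.35, SE 0.0789, edgeR adjusted p = 0.00249). Its partner Syvn1 (chromosome 19, 6046576 to 6053712) was higher, with 46.2, 49.5, 43.2, 47.9 and 41.8 CPM in WT mice and 68.3, 51.6, 56.2, 50.7 and 69.9 CPM in KSR23 mice (log2 FC 0.38, SE 0.0928, edgeR adjusted p = 0.00512). The adaptor and the ligase thus differed in direction, each without overlap between the groups. Os9 (chromosome 10, 127095650 to 127121131) had 134, 117, 115, 118 and 127 CPM in WT mice and 171, 142, 137, 156 and 168 CPM in KSR23 mice (log2 FC 0.34, SE 0.0731, edgeR adjusted p = 0.00164).

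Derl3 (chromosome 10, 75893413 to 75895941), the derlin of secretory tissues, had 87.5, 88.0, 92.2, 89.6 and 74.9 CPM in WT mice and 113, 117, 104, 115 and 140 CPM in KSR23 mice. Every KSR23 mouse was above the WT mice, with log2 FC 0.45 ± 0.0799 (SE, edgeR adjusted p = 0.000364). Derl1 was higher with overlap (log2 FC 0.27, edgeR adjusted p = 0.00726) and Derl2 was not called (log2 FC -0.08). Herpud1, a stress-inducible component of the complex, had 265 to 342 CPM in WT and 302 to 505 CPM in KSR23 mice, with KSR23 replicates 1 and 5 far above the other 3, and was not called (log2 FC 0.30, edgeR adjusted p = 0.0708). Vimp, encoding the selenoprotein of the derlin complex, had a log2 FC of 0.05. In the two-sided exact permutation test of mean CPM, every gene described above as having no overlap had p = 0.00794. This is the smallest p that 252 splits of 10 mice allow. Groups without overlap always give it, so it adds nothing to the absence of overlap.

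The sum over the 45 genes hid these opposite movements. Summed CPM was 15180 ± 396 in WT and 15300 ± 1525 in KSR23 mice (SD, n = 5 each). Without Pdia2, the sum was 11180 ± 345 CPM in WT mice (10600 to 11420) and 12690 ± 1303 CPM in KSR23 mice (11100 to 14660), and the groups overlapped. The chaperones and co-chaperones summed to 2734 to 3088 CPM in WT and 3312 to 4674 CPM in KSR23 mice, and the sensors and factors to 878 to 933 and 1299 to 1745 CPM, both without overlap and both led by 1 abundant gene, Hspa5 and Xbp1. Disulfide enzymes summed to 7105 to 7490 CPM in WT and 5814 to 7362 CPM in KSR23 mice. Set against the 19 acinar genes for secreted proteins, the summed CPM of the ER genes stood at a log2 ratio of -4.99 to -4.85 in WT and -4.61 to -4.29 in KSR23 mice. Relative to the RNA of these secreted products, ER gene RNA was higher in every KSR23 mouse. The secreted genes had a mean sum of 466400 CPM in WT and 338000 CPM in KSR23 mice. The mean ER gene sums were 15180 and 15300 CPM, so between the group means the ratio moved mostly with the secreted genes. The 3 acinar transcription factor genes that were lower were Ptf1a, Rbpjl and Bhlha15, the last encoding MIST1, which sets the secretory capacity of acinar cells (log2 FC -0.50, -0.40 and -0.43).

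**Figure D4:**
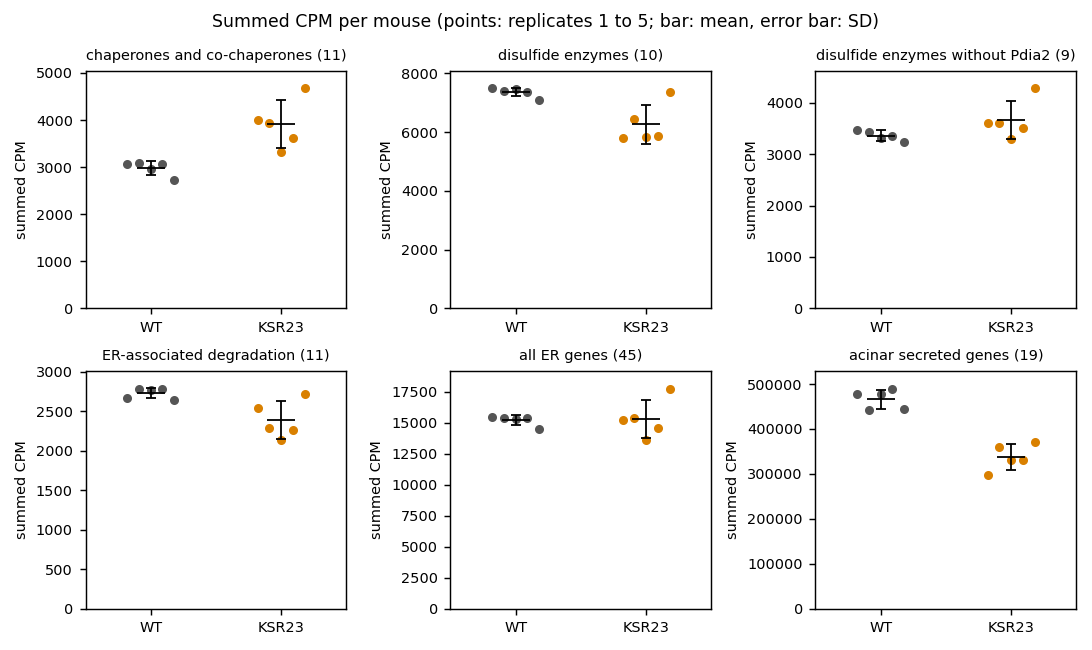
Summed CPM per mouse for 4 sets of ER genes, all 45 ER genes and the 19 acinar genes for secreted proteins, with the number of genes in brackets; points are replicates 1 to 5, the long bar is the mean and the error bar the SD of 5 mice. The chaperone sum was higher in all KSR23 mice (3312 to 4674 against 2734 to 3088 CPM) while the sum of all 45 genes overlapped between the groups.

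Within the KSR23 group the ER genes varied together between mice. KSR23 replicate 5 was the highest of its group in 33 of the 45 genes (73.3%, against 20.8% of all tested genes), and replicate 3 was the lowest in 26 (57.8%, against 21.4%). In the WT group, replicate 5 was the lowest in 23 genes (51.1%, against 21.1%). In depth, KSR23 replicate 5 was the deepest library of its group, with 57784136 counts, KSR23 replicate 3 the shallowest of all, with 16715976, and WT replicate 5 the shallowest of the WT group. KSR23 replicate 4, the next deepest of its group with 38923301 counts, was the highest in 2 genes and the lowest in 10. WT replicate 4, the deepest WT library with 33189132 counts, was the highest in 8 genes (17.8%). KSR23 replicate 3 also had the highest summed CPM of myeloid markers in its group, 338, and replicate 5 the lowest, 136. Much of the sum in replicate 3 came from S100a8, S100a9 and Mpo (76.4, 73.5 and 37.7 CPM). Replicate 3 was the highest of its group in these genes and in Cd68, and not in Csf1r, Emr1 and Itgam. KSR23 replicate 5 had the highest sums of its group for acinar secreted genes (370700 CPM) and acinar transcription factors (621 CPM). Its stromal sum was the lowest (7432 CPM). KSR23 replicate 3 was at neither end of its group in the acinar and stromal sums. WT replicate 5 had the highest stromal sum of the WT group, 10280 CPM. Its acinar secreted sum of 444000 CPM was close to the lowest of the WT group, 443200 CPM. Its sum of acinar transcription factors, 710 CPM, was close to the highest, 714 CPM. The part of depth and of these markers in the ranks was not tested. Leaving out KSR23 replicate 5 gave 15 ER genes higher and 6 lower, and leaving out KSR23 replicate 3 gave 18 and 6. Replicate 5 was also the highest KSR23 mouse for 5 of the 6 genes that were lower, namely Pdia2, Edem1, Edem2, Sel1l and Ero1lb, and so the nearest to WT in these, and the farthest from WT in most of the genes that were higher.

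**Figure D5:**
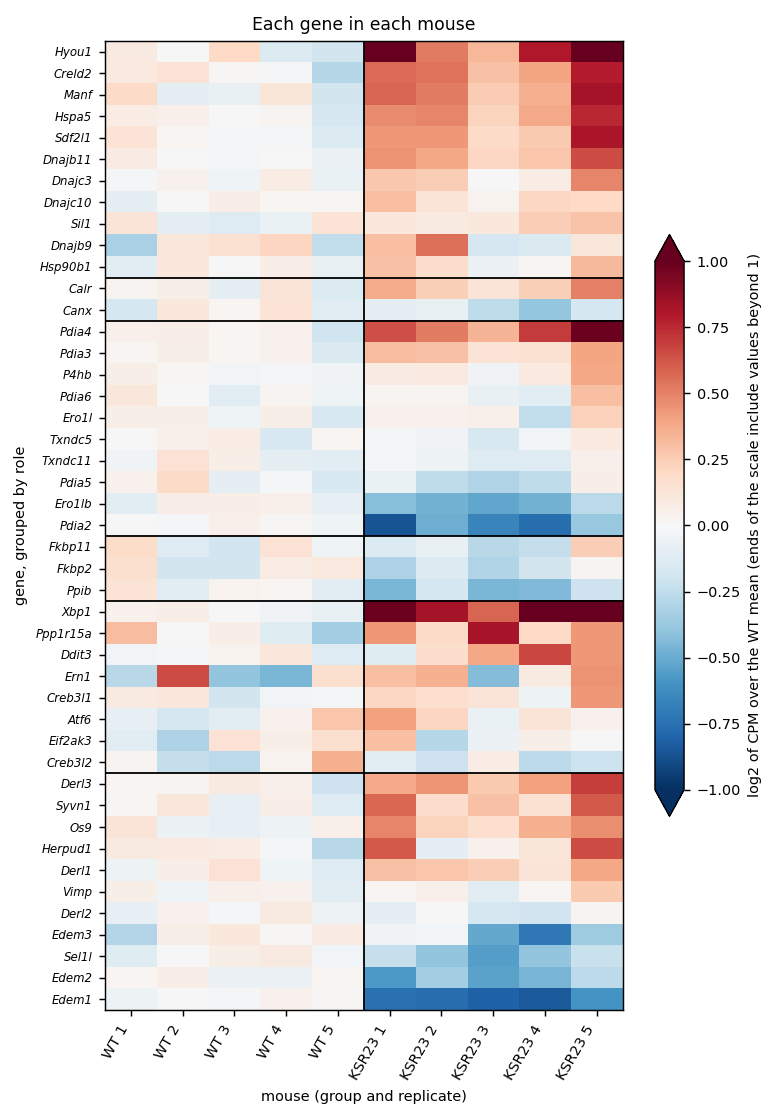
Log2 of the CPM of each of the 45 ER genes (rows, grouped by role in the order of the text and split by lines) over the mean of the 5 WT mice, in each mouse (columns); red is above and blue below the WT mean, and the ends of the scale at -1 and 1 include values beyond them. The KSR23 replicate 5 column is the reddest of its group, and it was the highest KSR23 mouse in 33 of 45 genes.

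Other genes of the same pathways, written down as lists by function, were called at about the background rate. Of 60 such genes, 57 were tested, 10 were higher, 8 were lower and 39 were not called (31.6% called, against 31.0% of all tested genes), and their median log2 FC was 0.02. Creb3l4, an ER-tethered relative of Creb3l1, had the largest log2 FC among them, with 4.19 to 5.89 CPM in WT and 7.27 to 12.8 CPM in KSR23 mice (log2 FC 1.002, edgeR adjusted p = 5.35e-05). Atf6b and Creb3 were higher too, with log2 FC of 0.31 and 0.19. The cytosolic partners that pull substrates from the membrane, Ufd1l and Nploc4, and the degradation genes Aup1 and Herpud2 had log2 FC between 0.24 and 0.29. The glycan-trimming genes Mogs, Prkcsh and Man1b1 were also higher (0.24 to 0.29), whereas the selenoprotein gene Sep15 was lower (-0.30). The membrane-bound oxidoreductases Tmx1, Tmx2 and Tmx4 were lower (-0.31, -0.45 and -0.34), as were the isomerase genes Fkbp7 and Fkbp14 (-0.31 and -0.39). In the PERK to ATF4 arm, 2 of 7 genes were called and both were lower: Asns, encoding asparagine synthetase, and Ppp1r15b (log2 FC -0.59 and -0.47). Ppp1r15a, the inducible relative of Ppp1r15b, was higher, as given above. With libraries scaled by their totals alone, 20 of the 57 genes were higher and 4 lower.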

How the data were processed

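Pancreas RNA of 5 WT and 5 KSR23 mice was primed with oligo-dT and amplified (SMART-Seq v4), and the kit used does not mark strand. The authors aligned single-end reads to mm10 with TopHat 2.1.0, counted uniquely aligned reads per protein-coding gene with htseq-count (HTSeq 0.6.1p1 per the submitters' processing notes, which also name edgeR 3.18.1), and deposited raw counts without normalization. The annotation and the strand setting of the counting are not given in the sources used here. Tallies of reads assigned to no gene (5.78% to 7.54% per library, with alignments that were not unique left out of this share) were kept out of library sizes.

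A gene was tested where each library held 5 or more of its counts (13882 of 24062). Counts were scaled by TMM and compared with edgeR 4.0.16 (quasi-likelihood F test, group as the only term, Benjamini-Hochberg adjustment over all tested genes, threshold 0.05) in R 4.3.3. CPM values use the scaled library sizes, and log2 CPM a prior count of 2. The standard error is the log2 FC divided by the square root of F, and 95% intervals of single genes span 2.10 standard errors on each side (18.1 moderated degrees of freedom, those of the test). For single genes, mean CPM was also put to an exact permutation test (two-sided). A count of 3 corresponds to 0.0519 to 0.179 CPM, and PCR copies cannot be told apart, and these floors allow for counting error only. The labels name no batch, day or sex. The study describes 5 mice per group, and no pair of libraries of a group was alike within counting error (chi-square per degree of freedom of at least 11.9). The scripts were tested on simulated data.

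The 45 genes and the other lists were chosen with earlier results of these data known. Values in every mouse are given for Hspa5, Xbp1, Ern1, Eif2ak3, Atf6 and Ddit3 and, in each role, for up to 4 genes per direction that were called without overlap, by size of log2 FC. Of the other pathway genes, up to 4 per list and direction are named. The marker lists are given mostly as counts and sums, with few of their genes named. Hsp90b1, Herpud1, Edem3, Canx and Ppp1r15a are described by their ranges, and the rest are accounted for by role. Gene positions, exon lengths and overlaps are from GENCODE M21 on GRCm38, and promoters from RefSeq (GRCm38.p6), shown with 25 bases on each side of the element, or 5 where the longer stretch would meet the gene as GENCODE places it. For Ero1l, Ero1lb and Vimp the promoter was matched through a synonym. Protein features were not analysed here. Alternatives were DESeq2 1.42.0, edgeR's likelihood ratio test and other count filters. Alternative scalings were RLE, library totals alone, and TMM computed without the 50 highest genes. The remaining alternatives were the replicate number as a block, leaving out each mouse, and leaving out WT replicates 1 and 2 together. Jejunum libraries and quantitative PCR were not analysed here.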

Additional observations from a re-analysis of the deposited data

Results flagged for a closer look

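Of 90 groups examined (45 ER genes in 2 groups of 5 mice, on log2 CPM), 5 held a mouse far from the other 4, and chance gives about 4.5. WT replicate 5 was low in 4 of the 5. It had 450.4 CPM of Pdia3 (the other WT mice 503.5 to 517.6), 113.2 CPM of Pdia4 (132.0 to 136.3), 265.0 CPM of Herpud1 (318.0 to 342.2) and 74.89 CPM of Derl3 (87.52 to 92.20). WT replicate 1 was low in Edem3, with 30.53 CPM against 37.75 to 40.32. In 3 of these genes, Pdia3, Pdia4 and Derl3, the other 4 WT mice also lay below every KSR23 mouse.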

How the results depend on the processing

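Over 19 alternatives, 21 of the 23 called ER genes kept their direction and their call, and the other 2, Dnajc3 and Dnajc10, lost the call in 12 each without a change of direction. Between 15 and 23 ER genes were higher and 6 to 8 lower. Leaving out 1 mouse at a time gave 15 to 18 higher and 6 to 8 lower ER genes, 6 to 11 higher and 7 to 10 lower of the other pathway genes (the 6 without WT replicate 4, against 10 in all mice), and 17 to 20 higher and 25 to 27 lower marker genes. With WT replicates 1 and 2 both left out, 19 ER genes had an exact permutation p below 0.05, against 23 in all mice and 30 with library totals alone. The share over all tested genes is not given for this test, so these counts are not a result about the ER genes. Fewer mice also allow fewer splits, and library totals alone raised the median log2 FC of all tested genes to 0.09. With library totals alone, 20 of the other pathway genes were higher and 4 lower.

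Signs reversed in 13 of 855 values, all in genes that were not called, at log2 FC near 0. With library totals alone they were Txndc5 0.0658, Txndc11 0.0374, Fkbp11 0.00832 and Derl2 0.0104. With 1 mouse left out at a time, Eif2ak3 ranged from -0.0664 to 0.0857 (below 0 without WT replicate 1, WT replicate 2 or KSR23 replicate 1), Ero1l from -0.0244 to 0.0958 (below 0 without either replicate 5), Pdia6 from -0.0326 to 0.0774 and Vimp from -0.00186 to 0.0926 (below 0 without KSR23 replicate 5), and Txndc5 from -0.0637 to 0.00949 (above 0 without KSR23 replicate 3). Eif2ak3 was -0.103 without WT replicates 1 and 2. Beyond the scaling and the mice left out, the cause was not tested. Of the genes not called, 8 passed in some alternative: Hsp90b1, Sil1, P4hb, Creb3l1, Ddit3, Herpud1, Canx and Edem3.

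Both groups number their replicates 1 to 5, but same-numbered mice did not deviate together (correlation of deviations -0.111 to 0.0661). Of the 5 WT mice, 1 correlated best with the KSR23 mouse of its own number. These correlations gave no sign that the number pairs the mice, but they cannot show whether mice shared a litter or a day. With the replicate number as a block, 15 ER genes were higher and 6 lower, the calls lost being those of Dnajc3 and Dnajc10. KSR23 replicate 3 was the shallowest library. The least abundant gene, Ern1, had at least 54 counts in every library, with an SD of 1.44 CPM in WT and 1.01 CPM in KSR23 mice. The part of depth in its spread was not tested.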

Other observations

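The ERSE is rare enough that the genes holding it can be counted. Of the 25 other genes with an ERSE in the 250 bases before the start, a set looked at after the values of the ER genes were seen, 8 had enough counts to be tested. Acacb, encoding an acetyl-CoA carboxylase, and Hnrnpa3 were lower in KSR23 mice (log2 FC -0.48 and -0.45, edgeR adjusted p = 0.00671 and 0.0476), and the other 6 were not called. The median log2 FC of the 8 was 0.05. Alg12 is one of the uncalled genes, with a log2 FC of 0.17, as is Calr4, a relative of Calr, with 0.11 at about 1.05 CPM in WT mice.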
